A study of Caenorhabditis elegans with 45 samples.

Results

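The comparison described here set the RNAi-competent strains N2, JU1088 and EG4348 against the RNAi-incompetent strains CB4856 and QX1211 of *Caenorhabditis elegans*, all fed bacteria with the empty vector. It used 15 of the 45 libraries of the series, 9 from the competent and 6 from the incompetent strains, with 3 biological replicates of each strain. N2 is the laboratory reference strain and the others are isogenic wild isolates. Each library held RNA of whole day 1 adult hermaphrodites, reared from the first larval stage on HT115 *Escherichia coli* that carried pL4440 without an insert. The class of a strain was taken from the study, which describes N2 and JU1088 as competent for germline RNAi by feeding, EG4348 as moderately competent and CB4856 and QX1211 as largely incompetent. It was not taken from the values. The other 30 libraries, from the same strains on *par-1* or *pos-1* RNAi, served to look at the same genes again.

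In RNA interference by feeding, double-stranded RNA from the gut enters cells through membrane channels and is cut by Dicer into small interfering RNAs. A primary Argonaute carries these to the target mRNA, RNA-dependent RNA polymerases then copy the target into secondary small RNAs, and a second set of Argonautes, the WAGO clade, acts on the mRNA or in the nucleus. Strains that differ in this response on feeding can thus differ at any of these steps, or elsewhere. On the empty vector no *C. elegans* gene was targeted, so the values show each strain without a trigger against one of its own genes.

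The class of a strain belongs to the strain, so the strains were the units: 3 against 2. An exact two-sided permutation test of 3 against 2 values cannot give a p below 0.2, and only a fit that shares its estimate of the spread among genes can call single genes. Depth lay between 4269033 and 12844953 reads per library, and QX1211 held the shallowest library. QX1211 was maintained at 18 °C before the experiment and the others at 20 °C. The incompetent strains are also those that the study describes as most diverged from N2, whose genome was the base of each transcriptome. With 5 strains, competence, divergence and any other property that splits them the same way cannot be told apart. As a check of the labels, *pos-1* on *pos-1* RNAi had 415 to 3248 normalized counts (median 980) in the 9 competent libraries, against 4909 to 6571 (median 5366) in the 6 incompetent ones. On the empty vector the ranges of *pos-1* overlapped, at 5540 to 6621 in competent and 5308 to 6672 in incompetent strains. The ranges of *par-1* on *par-1* RNAi overlapped as well, at 952 to 1527 (median 1026) in competent and 806 to 1416 (median 1272) in incompetent strains.

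Few genes separated the strains by class beyond the spread between strains. Of 16490 genes tested with strains as units (edgeR quasi-likelihood F test, adjusted p under 0.1), 13 passed, which is 0.0788%. Of these, 10 (0.0606%) were higher and 3 (0.0182%) lower in the competent strains. At an unadjusted p under 0.05, 1133 genes passed (6.87%). The count turned on single strains: without N2 it was 0, without JU1088 3, without EG4348 1, without QX1211 32 and without CB4856 259. The last 2 counts set 1 incompetent strain against the competent ones, on the assumption that a lone strain varies like the others, and do not test the class. Of the 13 genes themselves, 0, 1, 1, 11 and 13 still passed without these strains in that order. With DESeq2 on the same sums 259 genes passed, and with limma voom and the strain as a random block 488.

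A simpler description asked for which genes every strain of one side lay beyond every strain of the other in the deposited normalized counts. By the means of the strains, 4133 of 16489 genes (25.1%) were apart, 1655 (10.0%) higher and 2478 (15.0%) lower in the competent strains. A random order of the strain means would put a gene apart, in either direction, with a probability of 0.2. Only 584 of these had a gap of at least 1.5 times, 142 higher and 442 lower. In the stricter form, each of the 9 competent libraries lay beyond each of the 6 incompetent ones. This held for 327 genes (1.98%), 139 (0.843%) higher and 188 (1.14%) lower in the competent strains. A gap of at least 1.5 times between the nearest libraries was left for 102 of them, 53 higher and 49 lower. The 139 higher genes had a median of 94.9 normalized counts on their high side and a median log2 difference of 1.52. The 188 lower genes were expressed at lower levels, with a median of 30.2 on their high side and a median log2 difference of -1.75, and 48 of them stayed under 10 there. Among all genes tested the median log2 difference between the sides was -0.02. Leaving out a strain can only keep or enlarge the set apart by libraries, which then held 716 genes without N2, 585 without JU1088, 576 without EG4348, 1019 without QX1211 and 2274 without CB4856. When the spread between libraries of a strain was used instead, 3905 genes (23.7%) passed, 1712 (10.4%) higher and 2193 (13.3%) lower, 2460 without EG4348 and 2032 without QX1211. That test speaks of these 5 strains alone and not of the class.

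**Figure D1:**
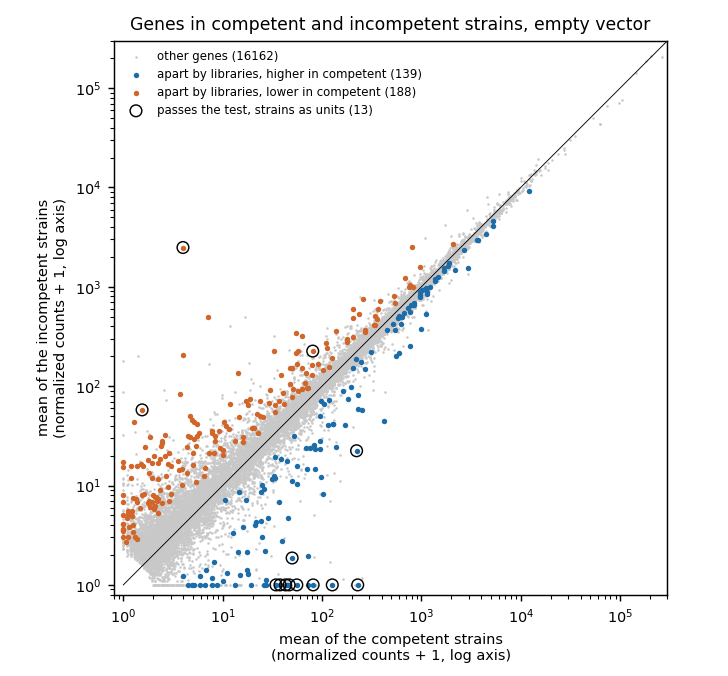
Mean of the 3 competent strain means (horizontal axis) against the mean of the 2 incompetent strain means (vertical axis), in normalized counts plus 1 on log axes, for 16489 genes. Blue and orange points are the 139 and 188 genes apart by libraries, and black circles mark the 13 genes that passed the test, 8 of which lie on the floor of the vertical axis.

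The 13 genes fell mostly into genes with reads on one side alone. In 8 of them the 6 incompetent libraries held 0 reads, of 47495305 in all, which allows up to 0.0632 CPM by counting error. Folds against such a side are given as bounds at 3 reads over its libraries. A count of 0 can also come from a gene missing from a strain, or too diverged for its reads to be assigned. Of genes without expression in a wild strain, the study classed most as missing or of low DNA coverage there. DNA coverage was not examined here. The normalized counts of F19B2.5, a protein-coding gene on chromosome V (WBcel235, 20162615 to 20164165), ranged from 140 to 293 (median 226) in the competent libraries, against 0 in each incompetent library. It was at least 443-fold higher (adjusted p = 0.00823). The level of *cst-2*, which encodes a kinase of the Ste20 and MST family, lay between 102.5 and 155 (median 122) in the competent libraries and was 0 in every incompetent one, at least 254-fold higher in the competent strains (adjusted p = 0.0137). Both genes thus had reads in all 9 libraries of one side and in no library of the other.

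The paralog of *cst-2*, *cst-1*, lies close by on the X chromosome (4339632 to 4343706, against 4333057 to 4336050 for *cst-2*) and was chosen after its values were seen. It had 139 to 229 normalized counts (median 196) in the competent and 136 to 188 (median 166) in the incompetent strains, so that the sides overlapped (log2 difference 0.26 ± 0.16 (SE), adjusted p = 0.732). The sum of both genes was 264 to 372 in the competent and 136 to 188 in the incompetent libraries. The level of *cst-1* was thus not higher in the incompetent strains, which had no reads for *cst-2*. How Salmon divided reads between both paralogs was not tested.

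Of the remaining genes without reads in CB4856 and QX1211, R07C12.2, M162.9, Y102A5C.3 and B0047.5 are annotated as pseudogenes in N2. They had competent medians of 77.3, 56.8, 42.3 and 36.2 normalized counts, with bounds of at least 165-fold, 110-fold, 84.3-fold and 70.1-fold (adjusted p = 0.0230, 0.0412, 0.0412 and 0.0652). *his-48*, a histone gene, had 25.6 to 64.6 (median 43.0) in the competent libraries and 0 in the incompetent ones, at least 89.7-fold higher (adjusted p = 0.0439). Histone genes occur in near-identical copies among which Salmon divides reads, so the level of one copy is uncertain. Summed over the 56 *his* genes tested, the strain means were 3928, 3923 and 3392 normalized counts in N2, JU1088 and EG4348, against 3241 in CB4856 and 4807 in QX1211, so the sums were not apart. With *his-59* and *his-60*, 3 of the 56 were apart by libraries, all higher in the competent strains. K08D10.14 had 17.8 to 49.4 (median 30.8) against 0, at least 64.6-fold higher (adjusted p = 0.0891). Y102A5C.3, *his-48*, B0047.5, K08D10.14 and Y46D2A.2 were named because they passed, beyond the rule for named genes.

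In 2 further genes the incompetent strains kept some reads. The F-box gene *fbxa-210* had 169.9 to 247 normalized counts (median 230) in the competent libraries and 15.1 to 34.5 (median 19.9) in the incompetent ones, a log2 difference of 3.33 ± 0.23 (SE, adjusted p = 0.0372). F-box proteins bring substrates to ubiquitin ligases. Y46D2A.2 had 24.3 to 76.3 (median 49.2) against 0 to 3.20 (median 0.425), a log2 difference of 5.94 ± 0.52 (adjusted p = 0.0660). Its call was lost without QX1211 replicate 1 (adjusted p = 0.140) or 2 (0.249).

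The other 3 genes were lower in the competent strains. B0250.3 is annotated as a pseudogene on chromosome V (20468349 to 20469413), and had 0 to 8.20 normalized counts (median 2.37) in the competent libraries, against 2069 to 3378 (median 2330) in the incompetent ones, a log2 difference of -9.72 ± 0.35 (adjusted p = 0.00608). It was the gene with the smallest p and the only one of the 13 still called without EG4348. C49G7.13 had 0 to 1.76 (median 0) in the competent strains and 32.2 to 80.6 (median 52.4) in the incompetent ones (log2 difference -6.79 ± 0.48, adjusted p = 0.0405). C34D4.10 had reads everywhere, 69.2 to 102.4 (median 76.2) against 188 to 272.5 (median 217), which gave a log2 difference of -1.49 ± 0.14 (adjusted p = 0.0891).

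*rpl-2*, which encodes a protein of the large ribosomal subunit, lies near B0250.3 (20479689 to 20480834, opposite strand) and was also apart, the other way. Its strain means were 12477, 12323 and 11805 normalized counts in N2, JU1088 and EG4348, against 8933 in CB4856 and 9417 in QX1211 (log2 difference 0.44 ± 0.07, adjusted p = 0.373). The libraries of both sides overlapped in the sum of both genes, at 10445 to 13296 in the competent and 10718 to 12910 in the incompetent strains. The strain means of the sum were just apart, at 12481, 12328 and 11806 in the competent strains against 11785 in CB4856 and 11540 in QX1211. Whether both share sequence was not tested, since no sequence was used here.

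Several calls near the threshold also depended on single libraries. C34D4.10 missed it without N2 replicate 2 or 3, JU1088 replicate 3, EG4348 replicate 2, CB4856 replicate 1 or QX1211 replicate 1 or 2, with adjusted p up to 0.145. K08D10.14 missed it without N2 replicate 1, JU1088 replicate 2, EG4348 replicate 2, CB4856 replicate 1 or QX1211 replicate 1 or 2, with adjusted p up to 0.130. C49G7.13 missed it without N2 replicate 3 or EG4348 replicate 2, at up to 0.108. Besides these and Y46D2A.2, the 9 remaining genes passed in all 15 such fits.

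**Figure D2:**
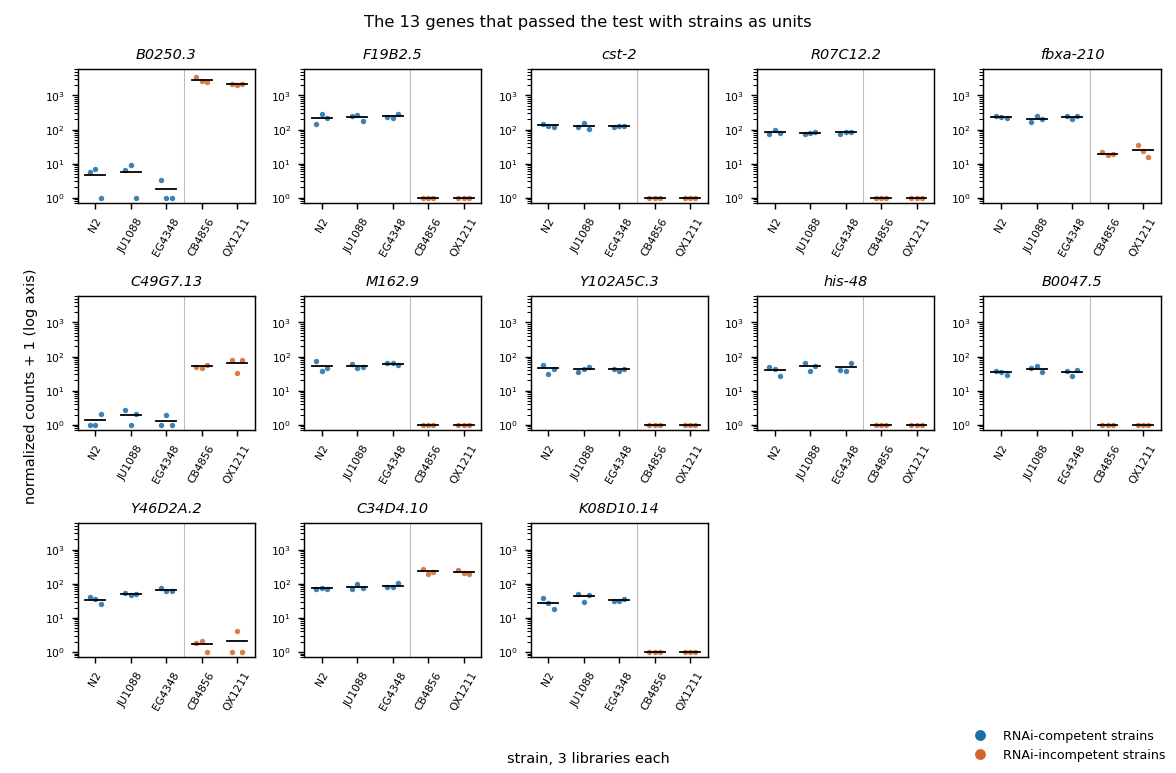
Normalized counts plus 1 (log axis) of the 13 genes that passed the test with strains as units, in order of adjusted p. Points are libraries and black bars the mean of the 3 libraries of a strain, with competent strains in blue to the left and incompetent strains in orange to the right of the grey line. No competent library overlaps an incompetent one in any panel.

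These differences recurred on bacteria that carried the vectors against *par-1* or *pos-1*. All 13 genes were again apart by libraries, in the same direction, in the *par-1* RNAi libraries, where 2.39% of all genes were apart in either direction, and in the *pos-1* RNAi libraries, where 1.69% were. Tested there with strains as units, 10 of 16907 genes (0.0591%) passed on *par-1* RNAi and 8 of 16766 (0.0477%) on *pos-1* RNAi, and all of these were among the 13. B0250.3 had log2 differences of -9.78 and -9.22 (adjusted p = 0.00631 and 0.000257), and *fbxa-210* of 3.82 and 4.04 (0.00702 and 0.0192). The *par-1* and *pos-1* RNAi libraries came from the same 5 strains, so they repeat the measurement of these strains and add no strain.

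By a rule on reads, at most 3 in every library of one side and at least 10 in every library of the other, 11 genes (0.0667%) were silent in the incompetent and 3 (0.0182%) in the competent strains. Of the 11, 5 are annotated as pseudogenes. Silent refers to assigned reads only, and a gene missing from a strain would look the same. Besides genes already named, the first set held *math-14*, a gene of the MATH domain family, with 16.3 to 112 normalized counts (median 93.3) against 0 (at least 155-fold, adjusted p = 0.356), and R10E8.7 with 16.4 to 118 (median 79.5) against 0 to 3.23 (adjusted p = 0.495). Their levels varied among the competent strains. For *math-14* the means were 85.4 in N2, 23.2 in JU1088 and 103.6 in EG4348, and the strain spread kept it from passing. The second set held C49G7.13, *sosi-1* and *nep-24*, a member of the neprilysin family of metallopeptidases, which had 0 to 2.44 normalized counts in the competent and 22.5 to 34.9 in the incompetent strains (log2 difference -4.89 ± 0.53, adjusted p = 0.145).

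Of the genes of the RNAi machinery, 4 separated the sides by libraries and none passed the test. Of 75 genes tested in 6 lists by role (1 of 13 WAGO genes had too few reads), none passed with strains as units, against 0.0788% of all genes, and 9 had an unadjusted p under 0.05, against 6.87% of all genes. By libraries 4 were apart (5.33%, against 1.98% of all genes), 1 higher and 3 lower in the competent strains. By strain means 16 were higher and 10 lower, against 10.0% and 15.0% of all genes. The median log2 difference of the 75 genes was 0.10. In whole animals, fewer cells of a type and less RNA per cell cannot be told apart.

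Among the genes for uptake of double-stranded RNA, *sid-1* was apart. It encodes the transmembrane channel through which double-stranded RNA enters cells. Its strain means were 559 ± 15.9, 531 ± 18.0 and 576 ± 42.6 normalized counts in N2, JU1088 and EG4348, against 331 ± 22.6 in CB4856 and 70.7 ± 1.99 in QX1211 (SD, n = 3 each). All competent libraries lay at 516 or above and all incompetent ones at 356 or below. Both incompetent strains were thus low, but to different degrees, and QX1211 was the lower. The log2 difference was 1.48 ± 0.60 (SE) and did not pass with strains as units (adjusted p = 0.725), whereas it passed with libraries as units (3.6e-12). Without CB4856 it was 2.98 (adjusted p = 0.00706), which sets QX1211 alone against the competent strains and is no test of the class. *sid-1* was again apart on *par-1* RNAi (log2 difference 1.53, adjusted p = 0.57) and on *pos-1* RNAi (1.42, 0.76). Of the other 8 genes of this list none was apart by libraries.

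The primary Argonaute *rde-1*, which binds the first small RNAs and was named after its values were seen, was apart by strain means only. Its means were 909, 957 and 900 normalized counts in the competent strains, against 878 in CB4856 and 813 in QX1211. The libraries overlapped (log2 difference 0.14 ± 0.07, adjusted p = 0.730). They overlapped on *par-1* and *pos-1* RNAi too, with log2 differences of -0.05 and 0.15. The microRNA Argonaute *alg-1* had means of 613, 590 and 536 in N2, JU1088 and EG4348, against 642 in CB4856 and 671 in QX1211, and its libraries overlapped as well (log2 difference -0.12 ± 0.08, adjusted p = 0.742). In the list of primary and other Argonautes only *alg-3* was apart by libraries. It acts in spermatogenesis, and had 0 to 9.04 (median 3.10) in the competent and 11.2 to 21.8 (median 12.3) in the incompetent libraries (log2 difference -2.08 ± 0.89, adjusted p = 0.725). The summed level of the sperm genes moved with it, at 186 to 929 TPM in the competent libraries, against 676 to 1391 TPM in the incompetent ones, and their part in the result was not tested. *alg-3* was not apart on *par-1* or *pos-1* RNAi.

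Among the WAGO Argonautes, *ppw-1*, required for efficient RNAi in the germline, was apart by strain means but not by libraries. Its means were 1864 ± 150, 1921 ± 140 and 2221 ± 116 normalized counts in N2, JU1088 and EG4348, against 853 ± 67.7 in CB4856 and 1495 ± 222 in QX1211 (SD, n = 3 each). CB4856 was the low strain, and the highest QX1211 library (1699) lay just above the lowest competent one (1693). For CB4856 the study cites a loss-of-function mutation of *ppw-1* from earlier work, which was not examined here. The log2 difference was 0.81 ± 0.25 (adjusted p = 0.724). *sago-2*, an Argonaute of secondary small RNAs, went the other way. It had 44.5 ± 19.3, 72.3 ± 22.1 and 70.3 ± 24.2 in the competent strains, against 149 ± 22.7 in CB4856 and 489 ± 36.9 in QX1211. The highest competent library was at 91.5 and the lowest incompetent one at 131. The log2 difference of -2.30 ± 0.54 did not pass (adjusted p = 0.625), and was -2.93 with QX1211 as the only incompetent strain (adjusted p = 0.0546), which is no test of the class. *sago-2* was also apart in both other sets of libraries.

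ZK218.8, annotated as an Argonaute pseudogene, had 0 reads in the 9 competent libraries and 8.61 to 23.98 normalized counts (median 17.5) in the incompetent ones. It was at least 47.2-fold lower in the competent strains, with 102 reads in all to support the level in the others (adjusted p = 0.302). ZK218.8 was apart by libraries again on *par-1* and on *pos-1* RNAi.

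Dicer and its cofactors (13 genes), the amplification and Mutator genes (21), the nuclear RNAi genes (10) and the germ granule genes (21) held no gene apart by libraries. Their fitted log2 differences lay between -0.08 and 0.29, between -0.83 and 0.40, between -0.16 and 0.40, and between -0.23 and 0.39. In the amplification and Mutator list 5 genes were higher and 1 lower by strain means, and in the germ granule list 3 and 0. Over all genes 10.0% were higher and 15.0% lower by strain means. By libraries 1.98% of all genes were apart, a share at which lists of this size hold few genes or none.

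At a locus of the endogenous RNAi pathway on chromosome I, *eri-6* and *sosi-1* were apart by libraries and *eri-7* was not. *eri-6* and *sosi-1* are in none of the RNAi lists above. *eri-6* and *eri-7* encode the parts of a helicase, joined in N2 by trans-splicing of their transcripts, whose loss enhances RNAi. *eri-6* (4457375 to 4469460) was lower in the competent strains. Its means were 107 ± 10.2, 120 ± 14.2 and 102 ± 5.97 normalized counts in N2, JU1088 and EG4348, against 266 ± 21.6 in CB4856 and 275 ± 52.6 in QX1211 (SD, n = 3 each). Competent libraries reached 134.5 at most and incompetent ones 238 at least. Strains of the same side were close to each other, which set this gene apart from *sid-1* and *sago-2*. The log2 difference of -1.29 ± 0.13 missed the threshold (adjusted p = 0.101). It passed in 5 of the 15 fits without 1 library (N2 replicate 1, JU1088 replicate 1, EG4348 replicate 3, CB4856 replicate 2 or 3, adjusted p of 0.0738 at the lowest), under another or no filter on low counts, and with DESeq2 or limma voom. With QX1211 as the only incompetent strain its adjusted p was 0.0679, which is no test of the class. Without the offset for transcript length the difference was only -0.62 (adjusted p = 0.478). On *par-1* and *pos-1* RNAi it was apart again, with log2 differences of -1.15 and -1.05 (adjusted p = 0.32 and 0.46).

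*sosi-1* lies on the other strand within the span of *eri-6* (4460146 to 4462704), and the library kit and the counting kept the strand. It had 0 to 2.92 normalized counts (median 0) in the competent and 17.2 to 37.3 (median 18.1) in the incompetent libraries, a log2 difference of -5.05 ± 0.67 (adjusted p = 0.256). *eri-7*, next to them (4451194 to 4456805), did not follow the class. It had means of 465.6, 434 and 461 in N2, JU1088 and EG4348, against 215 in CB4856 and 478 in QX1211 (log2 difference 0.42 ± 0.32, adjusted p = 0.762), and the difference was -0.04 without CB4856. *eri-7* was named after its values were seen.

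**Figure D3:**
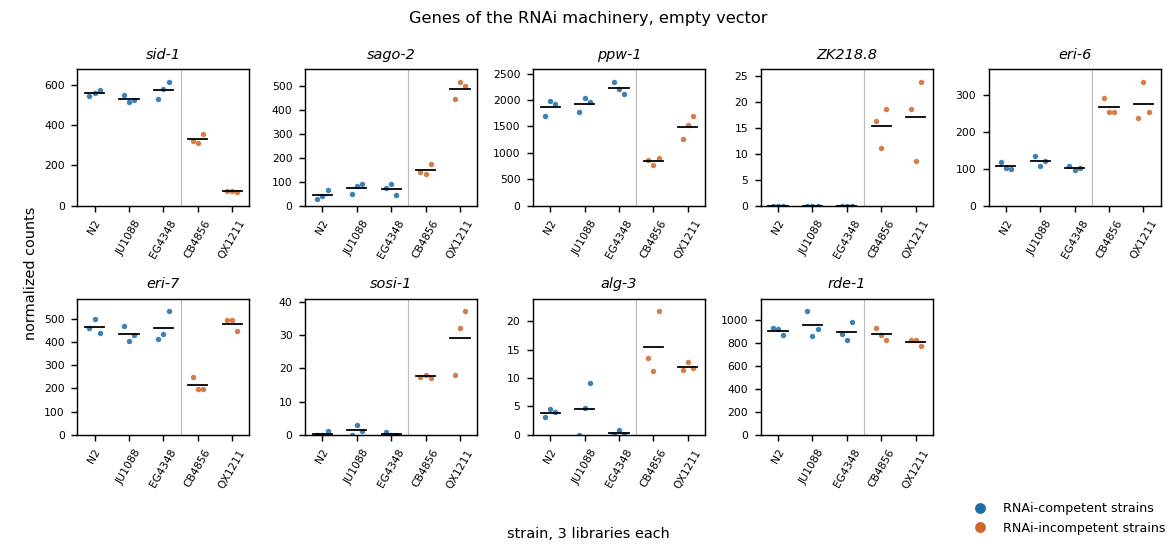
Normalized counts (linear axes from 0) of 9 genes of RNAi pathways on the empty vector. Points are libraries and black bars strain means, competent strains in blue to the left of the grey line and incompetent strains in orange to the right. *sid-1*, *sago-2*, ZK218.8, *eri-6*, *sosi-1* and *alg-3* do not overlap between the sides, whereas *ppw-1*, *eri-7* and *rde-1* do. The genes shown were picked by name, and *eri-6* and *sosi-1* are in none of the RNAi lists.

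Other genes that the study discusses did not separate the sides on the empty vector. *par-1* had 1120 to 1292 normalized counts in the competent and 844 to 1304 in the incompetent libraries. For *asp-14*, an aspartyl protease gene, the ranges were 33.8 to 68.1 and 24.3 to 60.8. W06G6.11 had 0 in N2, means of 4.17 in JU1088 and 10.4 in EG4348, and means of 6.03 in CB4856 and 6.21 in QX1211.

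Members of fast-evolving gene families made up a visible part of the genes apart. MATH and BATH domain genes held 11 genes apart by libraries among 63 tested (17.5%, against 1.98% of all genes), 8 higher and 3 lower in the competent strains. By strain means 17 were higher and 7 lower, against 10.0% and 15.0% of all genes. The median log2 difference of the list was 0.35, against -0.02 over all genes. *bath-19* had 5.98 to 74.8 normalized counts (median 56.6) in the competent libraries and 0 in the incompetent ones, at least 98.5-fold higher (adjusted p = 0.583). JU1088, with a mean of 6.26, lay far below N2 (61.1) and EG4348 (66.6). *bath-24* showed the same order at a lower level, with means of 31.3, 9.30 and 34.7 against 0 (at least 53.6-fold, adjusted p = 0.382). *math-45* was lower, with 6.68 to 26.5 in the competent and 51.3 to 79.6 in the incompetent libraries (log2 difference -1.85 ± 0.28, adjusted p = 0.316).

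The F-box genes held 17 apart by libraries among 265 tested (6.42%, against 1.98% of all genes), 9 higher and 8 lower. Besides *fbxa-210*, *fbxa-206* had 225 to 272 normalized counts (median 248) in the competent libraries. The incompetent strains differed from each other, with 0 in each CB4856 library and a mean of 112 in QX1211 (log2 difference 2.20 ± 1.56, adjusted p = 0.749). *fbxb-54* had means of 21.2, 9.64 and 5.71 in N2, JU1088 and EG4348, against 0 in both incompetent strains (at least 25.7-fold, adjusted p = 0.423). By strain means 18 genes of the list were higher and 39 lower, against 10.0% and 15.0% of all genes. In either direction 21.5% of the list was apart by strain means, against 25.1% of all genes. The median log2 difference of the list was -0.16.

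Of 3 lists of defence genes, immune effectors and C-type lectins leaned to lower levels in the competent strains by strain means. In the list of the intracellular pathogen response, 3 of 26 genes were apart by libraries (1.98% of all genes were), and by strain means 5 were higher and 4 lower. Its median log2 difference was -0.40, against -0.21 for immune effectors, -0.20 for C-type lectins and -0.02 over all genes. *pals-23* had 3.47 to 77.0 normalized counts (median 21.2) in the competent and 0 in the incompetent libraries (at least 54.5-fold, adjusted p = 0.525). *pals-25*, which promotes this response, had 14.1 to 43.8 (median 22.4) against 5.78 to 11.8 (median 9.29), a log2 difference of 1.322 ± 0.34 (adjusted p = 0.652). *pals-37* was lower, with at most 1.95 against 5.89 or more, and was not apart in the other libraries. Among immune effectors 3 of 98 genes were apart by libraries, and by strain means 4 were higher and 28 lower, against 10.0% and 15.0% of all genes. The lysozyme gene *lys-4* had 373 to 782 (median 586) in the competent and 91.7 to 322 (median 235.2) in the incompetent libraries (log2 difference 1.35 ± 0.14, adjusted p = 0.123). Its adjusted p was 0.0359 without a filter on low counts and lay between 0.0669 and 0.320 without single libraries, and it passed in 4 of those 15 fits, without N2 replicate 2 or 3, EG4348 replicate 1 or JU1088 replicate 1. *dod-23*, listed with the effectors, was lower, with 436 to 1292 (median 627) against 1579 to 3505 (median 2558), and CB4856 had the highest mean (3328, against 1743 in QX1211). C-type lectins, sugar-binding proteins of which many respond to bacteria, held 7 of 143 genes apart, 2 higher and 5 lower, and by strain means 13 higher and 35 lower. The 3 lectin genes with the largest gaps, *clec-110*, *clec-124* and *clec-95*, reached at most 6.82 normalized counts in any library, so they rest on few reads. The first 2 had 0 reads in the competent strains and *clec-95* had 1.

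Detoxifying glycosyl and glutathione transferases held 8 of 108 genes apart (7.41%, against 1.98% of all genes), 3 higher and 5 lower. *ugt-29* had 69.1 to 147.5 normalized counts (median 86.9) in the competent and 9.47 to 32.3 (median 23.4) in the incompetent libraries (log2 difference 2.03 ± 0.35, adjusted p = 0.393). *ugt-32* had 8.25 to 25.5 (median 18.5) against 52.5 to 92.3 (median 74.8), a log2 difference of -1.95 ± 0.26 (adjusted p = 0.256). *gst-39* had 25.7 to 50.2 in the competent and 63.3 to 115.6 in the incompetent libraries (adjusted p = 0.514). Cytochrome P450 genes held none apart among 69 tested.

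In other families the shares of genes apart by libraries were, but for the nematode-specific peptides (5.41%), below the 1.98% of all genes. Nuclear hormone receptors held 2 of 198, *nhr-243* higher (23.9 to 50.1 against 14.7 to 22.7) and *nhr-263* lower (0 to 2.13 against 2.82 to 10.5). Chemoreceptors held 3 of 166, all lower in the competent strains and all low: *srx-5* had 0 reads in the competent and 15 in the incompetent libraries, and *srlf-17* and *srlf-18* had at most 2.18 in the competent ones. Of 37 nematode-specific peptide genes, *nspc-13* (75.2 to 180.1 against 302.5 to 423) and *nspc-17* (22.4 to 103.6 against 159 to 285) were apart, and both recurred in the other libraries. One of 53 heat shock and folding genes was apart, *hsp-12.3*, with 3.67 to 9.40 against 9.70 to 28.1.

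**Figure D4:**
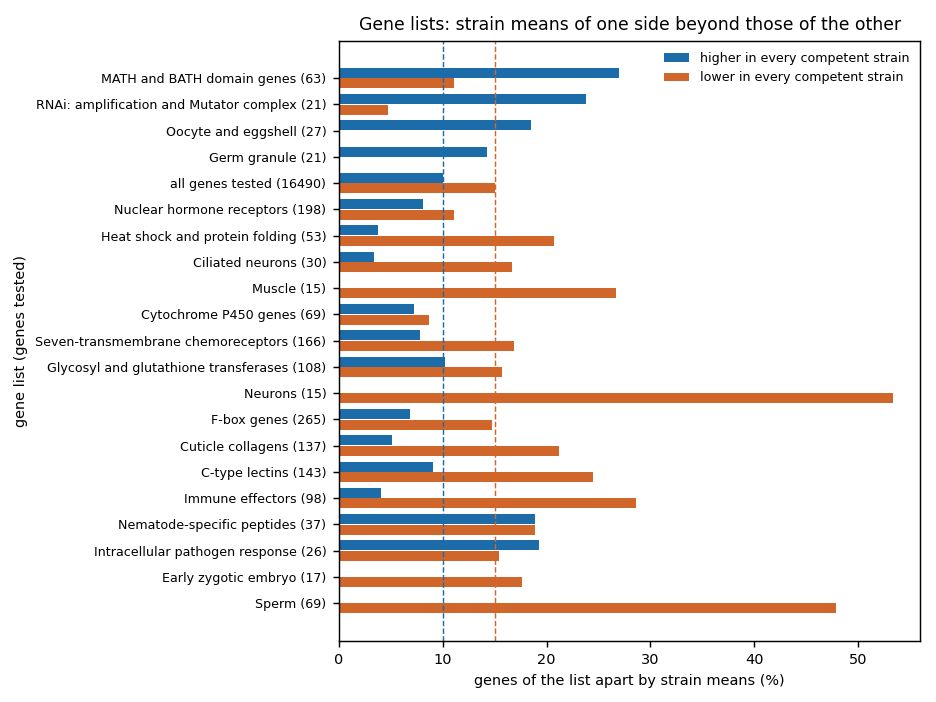
Share of the genes of each list with at least 15 genes tested (number in parentheses) whose competent strain means all lay above (blue) or all below (orange) the incompetent strain means. Dashed lines mark the shares over all genes tested, 10.0% higher and 15.0% lower, and lists are ordered by their median log2 difference, from MATH and BATH genes (0.35) at the top to sperm genes (-1.10) at the bottom.

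Some genes outside these families also had wide gaps. F42A9.6 had means of 350, 427 and 470 normalized counts in N2, JU1088 and EG4348, against 83.2 in CB4856 and 4.04 in QX1211 (log2 difference 3.26 ± 1.03, adjusted p = 0.724). On the other side, R03H10.6 had 2.53, 14.5 and 1.52 in the competent strains, against 489 in CB4856 and 500.4 in QX1211 (log2 difference -6.51 ± 0.84, adjusted p = 0.244). C38D9.2 had at most 5.28 in a competent library, against means of 42.2 in CB4856 and 372.5 in QX1211 (adjusted p = 0.356). F55B11.5 had the opposite order within the incompetent strains, with 144 in CB4856 and 18.7 in QX1211 and at most 5.72 in a competent library (adjusted p = 0.460). Y45F10C.2 had 35.1 to 73.8 against 184 to 528 (adjusted p = 0.277), and F35E12.9 20.8 to 63.5 against 120.3 to 173 (adjusted p = 0.244). All 6 were apart again in both other sets of libraries. *ule-2*, expressed in the uterus and named after its values were seen, had means of 740, 711 and 837 in the competent strains, against 310 in CB4856 and 193 in QX1211 (log2 difference 1.62 ± 0.22, adjusted p = 0.256). Among regulators of G protein signalling, *rgs-9* had 154 to 341 (median 203) against 47.3 to 68.5 (median 58.5), a log2 difference of 1.93 ± 0.34 (adjusted p = 0.393). Both gene IDs named *rgs-8.1* had identical values, 93.7 to 162 against 32.3 to 49.2, so they are 1 measurement, although both stand among the 139 genes.

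Genes apart lay near each other more often than other genes did. Of the 327, 148 (45.3%) had another gene apart that started within 50 kb, whereas 24.0% of the 16162 other genes had a gene apart as near. At 20 kb the shares were 33.3% and 11.0%. The longest run lay on chromosome II between 1994038 and 2049175 and held 10 genes, 9 of them higher in the competent strains: *math-20*, *cya-2*, *btb-4*, F59H6.14, *bath-19*, *bath-20*, B0047.2, *bath-24* and B0047.5. *math-21* at its edge was lower. *math-20* had 14.9 to 64.2 normalized counts in the competent and 0 to 4.18 in the incompetent libraries (log2 difference 4.26 ± 0.87, adjusted p = 0.525). A run on chromosome V (16917201 to 16924394) held *fbxa-206*, Y102A5C.2, Y102A5C.3 and Y102A5C.4, of which only Y102A5C.4 was lower in the competent strains, and CB4856 had 0 for *fbxa-206* and Y102A5C.2 where QX1211 had means of 112 and 22.3. R07C12.2 and K08D10.14, both silent in the incompetent strains, lay in 1 run on chromosome IV (4148141 to 4161789). *rgs-9* and *rgs-8.1* formed a run on the X chromosome (1915258 to 1953560). Genes of a run are neighbours and were not counted as independent observations. By chromosome the share of genes apart was between 1.21% on III and 2.52% on V. Pseudogenes were apart more often than protein-coding genes, 46 of 701 (6.56%) against 276 of 15528 (1.78%).

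Markers of stage and tissue were examined because all animals were harvested as whole adults at the onset of egg laying. No gene of these lists passed with strains as units, and over all genes 10.0% were higher and 15.0% lower in the competent strains by strain means. Of 69 sperm genes, none was higher and 33 were lower in the competent strains by strain means, and the median log2 difference was -1.10. In *C. elegans* hermaphrodites sperm are made before the switch to oocytes. The summed level of the list was 186 to 929 TPM (median 321) in the competent and 676 to 1391 TPM (median 918) in the incompetent libraries. EG4348 had the lowest mean (193 TPM), followed by JU1088 (408) and N2 (561), against 963 in CB4856 and 961 in QX1211. Of the competent strains only N2 reached into the range of the incompetent ones. The library that did so was N2 replicate 1 (929 TPM), which also had the lowest summed collagen level of all 15 libraries (9053 TPM). *msp-45*, a major sperm protein gene, had 0 to 19.9 normalized counts against 24.0 to 53.5, and *gsp-3*, a sperm phosphatase gene, 0 to 6.71 against 7.06 to 24.3. None of the 3 sperm genes apart, the other being *spe-46*, was apart on *par-1* or on *pos-1* RNAi.

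Oocyte and eggshell genes leaned the other way but little. Of 27, 5 were higher and none lower by strain means, with a median log2 difference of 0.12 and summed levels of 12065 to 13973 TPM in the competent and 10992 to 13374 TPM in the incompetent libraries. The chitin synthase gene *chs-1* had 4887 to 5510 normalized counts against 4152 to 4770 (log2 difference 0.20 ± 0.08, adjusted p = 0.724), and *egg-5*, which acts at the transition from oocyte to embryo, 1828 to 2303 against 1078 to 1813 (0.58 ± 0.17, adjusted p = 0.691). Neither gene was apart by libraries on *par-1* or on *pos-1* RNAi. Early zygotic genes (17 tested) had a median log2 difference of -0.42 with none apart by libraries, and their summed level ranged from 28.7 to 86.4 TPM in the competent and from 43.1 to 91.4 TPM in the incompetent libraries. Of 137 collagen genes 7 were higher and 29 lower by strain means, and 1 was apart by libraries, *col-154* (0 to 11.7 normalized counts against 20.4 to 44.5). Of 15 pan-neuronal genes 8 were lower, and of 15 muscle genes 4, with none higher in either list and medians of -0.13 and -0.09. Of 30 cilium genes 1 was apart by libraries, *dyf-3* (5.603 to 18.2 against 24.7 to 49.6). The part of stage in the differences between the sides was not tested.

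**Figure D5:**
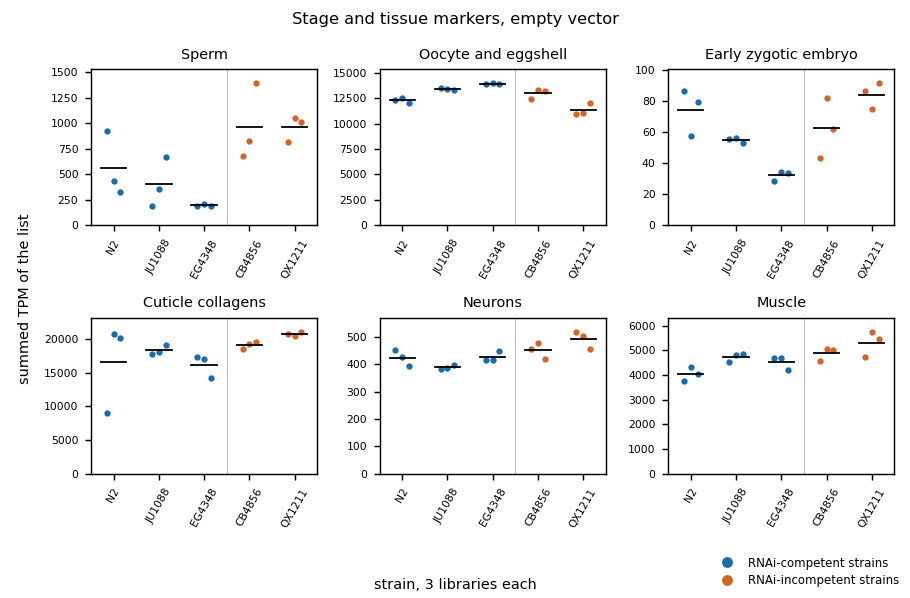
Summed TPM of 6 lists of stage and tissue markers in each library (linear axes from 0). Points are libraries and black bars strain means, competent strains in blue to the left and incompetent strains in orange to the right. Sperm genes were lowest in EG4348 (193 TPM), and in no list of the 6 were all competent libraries beyond all incompetent ones.

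Across all 327 genes, recurrence in the other libraries depended on the gap. Of the 139 genes higher in the competent strains, 82 (59.0%) were apart in the same direction on *par-1* RNAi, 74 (53.2%) on *pos-1* RNAi and 62 (44.6%) on both, against 1.17%, 0.885% and 0.473% of all genes tested. Of the 188 lower genes, 70 (37.2%), 64 (34.0%) and 50 (26.6%) recurred, against 1.22%, 0.807% and 0.346% of all genes. None was apart in the opposite direction. Where the gap between the nearest libraries was under 1.1 times, 12 of 131 genes (9.16%) recurred on both treatments. Between 1.1 and 1.5 times 27 of 94 did (28.7%), between 1.5 and 4 times 46 of 72 (63.9%), and at 4 times or more 27 of 30 (90.0%).

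Over all genes the strains did not group by class. Over the 8056 genes that averaged 50 normalized counts or more, the median absolute log2 difference was 0.11 between N2 and JU1088, 0.13 between N2 and EG4348 and 0.12 between JU1088 and EG4348. Between CB4856 and QX1211 it was 0.17. CB4856 was nearer to each competent strain, with 0.12 to N2, 0.10 to JU1088 and 0.12 to EG4348, than to QX1211. QX1211 lay farthest from all others, with 0.18 to N2, 0.18 to JU1088 and 0.20 to EG4348. The 2 incompetent strains were thus less alike than any pair of competent strains.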

How the data were processed

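Single-end reads were trimmed (Trimmomatic) by the authors and assigned by Salmon, with strand, to a transcriptome per strain (WormBase WS276 with that strain's variants). The deposited files per library give estimated counts, TPM and effective lengths per transcript, and the authors' table gives signal values per gene, DESeq2-normalized counts corrected for transcript length. Single genes are given in these. For the tests, the estimated counts of a gene's transcripts were added up and then rounded to whole numbers. Genes and positions came from an Ensembl annotation (WBcel235), another file than the authors' (19 of 65173 transcripts unmatched). Genes with 10 or more reads over the 15 libraries were tested in R 4.3.3 with edgeR 4.0.16 (TMM, average transcript lengths as offsets, quasi-likelihood F test, Benjamini-Hochberg adjustment over all genes), on sums per strain, or on libraries with a mean per strain. SEs were derived from the F statistic. Alternatives used DESeq2 1.42.0 and limma 3.58.1.

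Members and lists were chosen with earlier results of these data known. Named genes were, per direction, the 10 with the largest gap, the 5 of smallest p and up to 5 silent on one side; RNAi genes apart or named by the study; and up to 3 apart per other list. Steps were tested on simulated data. Depth was 4269033 to 12844953 reads, so 0 reads allow up to 0.0632 CPM over the incompetent and 0.0455 CPM over the competent libraries, counting error only.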

Additional observations from a re-analysis of the deposited data

Results flagged for a closer look

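Dixon's test flagged some libraries within their side, in the normalized counts of the genes named as apart by libraries. Each side pools strains, and chance flags about 1 group in 20. With a group per side for each gene, chance alone would flag several, so a single flag carries little weight. In the competent strains, JU1088 replicate 2 was high for *sosi-1* (2.92, next 1.06), JU1088 replicate 3 for *srlf-18* (2.18, all others 0) and *clec-95* (1.11, all others 0), and N2 replicate 1 was high for *srlf-17* (0.961, all others 0) and low for *egg-5* (1828, next 2155). In the incompetent strains, CB4856 replicate 3 was high for *srlf-17* (3.20, next 2.12) and *alg-3* (21.8, next 13.5), QX1211 replicate 2 was high for Y46D2A.2 (3.20, next 1.15), and QX1211 replicate 1 was low for *chs-1* (4152, next 4648). Of these only *egg-5* and *chs-1* rest on many reads.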

How the results depend on the processing

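With strains as units, 13 genes passed, and 259 with DESeq2 (135 higher, 124 lower in the competent strains) and 488 with limma voom and the strain as a random block (189 and 299). Leaving out 1 library gave 10 to 15 and leaving out 1 strain 0 to 259 (a lone incompetent strain is assumed to vary like the others, and is no test of the class). With libraries as units, 3905 passed, 2167 with a fold change above 1.5, 3041 to 4395 without 1 library and 2032 to 4639 without 1 strain. By strain means 4133 genes were apart, 584 with a gap of 1.5 times (142 and 442), and 3905 to 10530 without 1 library or strain. By libraries 327 were apart, 102 with that gap and 348 to 2274 without 1 library or strain, which can only keep or enlarge this set. Of 14 silent genes 9 had 0 reads on the silent side, and 14 to 16 were found without 1 library. Among named genes, log2 differences that missed the threshold changed sign in 6 fits without 1 strain: W06G6.11 (-1.87 without EG4348 to 0.011 without N2), *asp-14* (-0.0091 without N2 and -0.21 without QX1211, up to 0.57 without CB4856), *par-1* (-0.056 without QX1211 to 0.26 without CB4856), *pos-1* (-0.033 without QX1211 to 0.17 without CB4856) and *eri-7* (-0.041 without CB4856 to 1.105 without QX1211). Replicate numbers did not pair the libraries (mean correlation of deviations -0.02 over 30 pairs of the same number, 0.01 over 60 others), and with the number as a block 3715 genes passed with libraries as units. Depth limits genes under about 10 counts, and p-values of libraries measure plates of 1 strain.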
